A study of Schizosaccharomyces pombe with 130 samples.

Results

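The 10 genes described here, ago1, chp1, tas3, rdp1, hrr1, cid12, dcr1, arb1, arb2 and stc1, encode the core RNA interference machinery of the fission yeast Schizosaccharomyces pombe. They were taken by gene name from 5098 protein-coding genes among 7021 counted features. Measured were polyadenylated RNA (pA RNA), the nascent RNA bound to elongating polymerase (Pol II RIP) and polymerase occupancy (Pol II ChIP), in wild type and in strains lacking a silencing or RNA decay factor, all grown in rich YES medium. The silencing mutants were ago1Δ, clr4Δ, swi6Δ, chp2Δ, clr3Δ and mit1Δ. The decay mutants were rrp6Δ (nuclear exosome), exo2Δ (cytoplasmic 5′ to 3′ exonuclease), caf1Δ, ccr4Δ and mot2Δ (subunits of CCR4-NOT, which shortens poly(A) tails), and caf1*ccr4*, which keeps catalytically inactive Caf1 and Ccr4. The double mutants caf1Δago1Δ and caf1Δdcr1Δ were also profiled, the latter in 1 RIP library. Wild type had 4 pA RNA libraries and 2 of RIP and ChIP each, and the mutants had 1 to 4. The labels do not say whether replicates came from separate cultures, so p-values measure only the spread between these libraries.

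The strains were not isogenic. Wild type was strain 63 (h+) or strain 65 (h90, with ago1 FLAG-tagged), and rrp6Δ, exo2Δ, ccr4Δ, mot2Δ and the caf1Δ strain 510 carry the tagged ago1 as well. Of these, rrp6Δ and exo2Δ are h+, and ccr4Δ, mot2Δ and caf1Δ strain 510 are h90. No wild-type library therefore matches rrp6Δ or exo2Δ in both the tag and the mating type. The caf1Δ strain 591 and the caf1*ccr4* strain have another background, h90 with different marker genes, so genotype and background cannot be told apart there. The rrp6Δ strain also differs from both wild types in auxotrophic markers. In RIP both wild-type libraries are of strain 63, so in RIP of rrp6Δ, exo2Δ, ccr4Δ, mot2Δ and caf1Δ strain 510 the genotype cannot be told apart from the tagged background either. The swi6Δ and chp2Δ strains are h90 with a reporter at mat3, mit1Δ carries a reporter at imr1R, and clr4Δ, ago1Δ, clr3Δ and mit1Δ are h+. The mot2Δ pA RNA libraries are of strains 1022 and 1023, which the study lists with the same genotype. Those of mot2Δ in RIP and ChIP are of strain 1022. The caf1Δago1Δ libraries are of strains 523 and 524. Strain 523 is h90, whereas both RIP wild-type libraries are h+, so genotype and mating type cannot be told apart there in RIP. The study lists neither strain 524 nor the caf1Δdcr1Δ strain, so their backgrounds are not known here. A deleted or tagged gene was left out of its strain. The fold changes for ago1 therefore come from untagged strains alone, and dcr1 was not used in caf1Δdcr1Δ.

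In fission yeast, small RNAs cut by Dicer (Dcr1) from double-stranded RNA are loaded on Argonaute (Ago1). Ago1, the chromodomain protein Chp1 and the bridging protein Tas3 form the RITS complex, which is guided to nascent transcripts of the centromeric repeats. The RNA-dependent RNA polymerase complex (Rdp1, the helicase Hrr1 and the poly(A) polymerase family protein Cid12) makes new double-stranded RNA there. Arb1 and Arb2 hold duplex small RNA with Ago1 before RITS is formed, and Stc1 links RITS to CLRC, the complex of the H3K9 methyltransferase Clr4.

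In the reference annotation (assembly ASM294v3; the authors' build is not given in the sources used here) hrr1, cid12, dcr1 and ago1 lie on chromosome III. The genes chp1, rdp1, arb1 and arb2 lie on chromosome I, and tas3 and stc1 lie on chromosome II. Of the length of hrr1 (SPCC1739.03), 27.8% overlaps the opposite-strand gene dms1. For dcr1 (SPCC188.13c) 33.9% overlaps spn6, and for stc1 (SPBP8B7.28c) 92.7% overlaps mug30. The long cid12 (SPCC663.12) feature is covered over 63.4% by naa50 and trp663, and arb1 (SPAC140.03) lies wholly within the antisense RNA SPNCRNA.771. For arb2 (SPAC13G7.07) the shared stretch with crb3 was 1.83%, and ago1 (SPCC736.11), chp1 (SPAC18G6.02c), tas3 (SPBC83.03c) and rdp1 (SPAC6F12.09) overlap no other counted feature. ChIP reads carry no strand, so Pol II on these gene pairs cannot be assigned to either partner.

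Total counts per library ran from 2817056 to 22003055 in pA RNA, from 320014 to 5935811 in RIP and from 2463745 to 23468602 in ChIP. Where ago1 was deleted, its level was 0.235 to 0.269 TPM in pA RNA, at most 2.01 in RIP and at most 4.61 in ChIP. That was no more than 2.48% of the mean over all wild-type libraries, the tagged strain 65 included. In ChIP of wild type, ago1 was at 117 TPM in strain 63 and at 255 in strain 65. In caf1Δdcr1Δ, dcr1 was still at 51.5% of wild type in RIP, so the count does not show that deletion clearly. The clr4 feature stood at 75.2% and 106% of wild type in the pA RNA libraries labelled clr4Δ, and swi6 at 30.4 to 59.6% in those labelled swi6Δ. The caf1 feature was at 17.1% and 51.7% in pA RNA of caf1Δ, at 11.6 to 48.7% in RIP of the strains without caf1 and at 39.1 to 171% in their ChIP. The mot2 feature was at 1.78% and 2.63% in pA RNA of mot2Δ and at 10.2 to 26.9% in RIP, but at 65.1% and 120% in ChIP. For chp2 and clr3 the highest shares were 77.0% and 61.2%, and for rrp6, exo2, ccr4 and mit1 none was above 18.8%. For clr4Δ and swi6Δ, and for ChIP of caf1Δ, caf1Δago1Δ, mot2Δ, chp2Δ and clr3Δ, the name is therefore that of the label. The centromeric dg transcript, a target of RNA interference, was nevertheless at 575 and 599 TPM in pA RNA of the libraries labelled clr4Δ and at 494 to 646 TPM in ago1Δ, against 2.34 to 3.19 in wild type. In ChIP, 5 libraries (chp2Δ, mit1Δ and rrp6Δ replicate 3, and both of caf1Δago1Δ) had a flat profile, with an SD of log2(TPM + 1) over genes of 0.811 to 0.836 against 1.07 to 1.58 in the other 26 and 0.746 to 0.814 in input.

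At steady state the RNA interference genes were expressed at a low level. TPM, the length-scaled share of transcripts in a library, divides each count by the transcript length of its feature, so that genes can be set beside each other. The order in wild-type pA RNA was arb1, arb2, ago1, stc1, tas3, chp1, dcr1, rdp1, hrr1 and cid12. Only arb1, the ARC subunit at the top, reached the level of a typical gene, at 64.0 ± 7.95 TPM (SD, n = 4) against a median protein-coding gene of 65.7. Its partner arb2 followed at 38.1 ± 0.288 and ago1 at 36.2 ± 3.70 (n = 3), and both overlapped stc1 and each other in their spread, while arb1 stood above all of them. The link protein gene stc1 was at 34.1 ± 11.2 and tas3 at 31.0 ± 2.28. The remaining 5 genes lay within 16.3 and 24.2 TPM, and neighbours among them overlapped: chp1 at 24.2 ± 3.19, dcr1 at 23.9 ± 1.52, rdp1 at 20.9 ± 7.23, hrr1 at 19.6 ± 4.55 and cid12 at 16.3 ± 6.98. At cid12, 11.9% of protein-coding genes had a lower mean. These 5 genes have the longest features, from 3855 (chp1) to 5626 nt (dcr1). The others have 935 (stc1) to 2597 nt (ago1), and the part of length in the order was not tested.

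**Figure D1:**
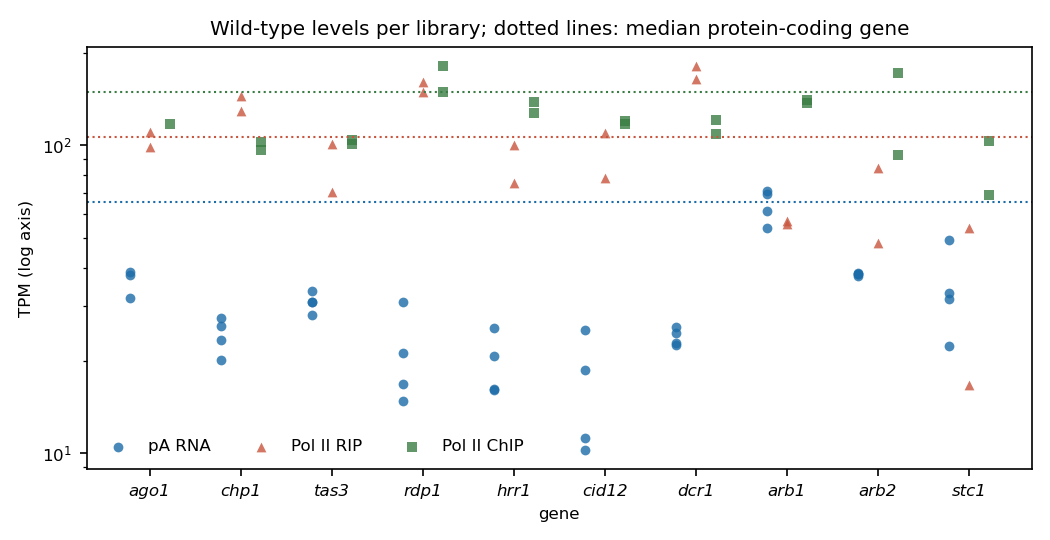
TPM on a log axis for each of the 10 genes in every wild-type library (points), in pA RNA, RIP and ChIP, with dotted lines at the median protein-coding gene of each measurement. In pA RNA 9 of the 10 genes sit below the median gene in every library, whereas in RIP dcr1, rdp1 and chp1 sit above it.

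The order was different in nascent RNA. In RIP, dcr1 was the highest of the 10 at 173 ± 11.2 TPM (SD, n = 2), above 71.3% of protein-coding genes, followed by rdp1 at 155 ± 8.15 and chp1 at 137 ± 10.8. The lowest were arb2 at 66.4 ± 25.8, arb1 at 56.2 ± 1.09 and stc1 at 35.4 ± 26.4, where the 2 stc1 values were 16.7 and 54.0. Pol II occupancy, from ChIP counts without subtraction of input, spread less, from 86.0 ± 24.2 TPM at stc1 to 165 ± 22.6 at rdp1, with a median gene at 149. In input, where no Pol II is enriched, the genes lay between 174 TPM (hrr1) and 280 TPM (arb1).

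The ratio of pA RNA to RIP, used in the study as a measure of RNA stability, placed dcr1 and rdp1 near the bottom of the genome. As a log2 ratio centred on the median gene, rdp1 was at −2.22 and dcr1 at −2.18, below which only 6.52% and 6.97% of genes fell. The values were −1.85 for cid12, −1.83 for chp1, −1.49 for hrr1, −0.81 for ago1 and −0.80 for tas3. The ARC gene arb1 (0.86) and stc1 (0.62) were above the median gene, and arb2 was close to it (−0.13). The study measures transcriptional efficiency as RIP over ChIP after subtraction of scaled input. The ratio of RIP to ChIP without that subtraction ran the other way for several of these genes. It was at 0.95 for dcr1 and 0.81 for chp1, but at −0.64 for arb2, −0.93 for stc1 and −0.95 for arb1. In the wild-type input library arb1, arb2 and stc1 had the highest TPM of the genes (280, 243 and 228). The part of input in their ratios was not tested. Both ratios share the RIP value, and each rests on means of few libraries, so they are given as a description. The genes lowest in pA RNA over RIP (rdp1, dcr1, cid12, chp1 and hrr1) are also those with the longest features. The part of length in that ratio was not tested.

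For the comparison of genotypes, edgeR's quasi-likelihood test was fitted per measurement over all libraries, and a gene was called at a Benjamini-Hochberg adjusted p under 0.05 over all features. Levels per library in the following are counts scaled to library size by TMM (CPM), which keep the median gene within 0.09 of no change on the log2 scale. Of 114 tests of the 10 genes in pA RNA 6 were called, in RIP 4 of 114, and in ChIP 2 of 114. Over all features the same comparisons called 10.4%, 2.78% and 3.38% of tests, so the genes were called at a share below that in pA RNA and ChIP and near it in RIP. The calls fell on hrr1, arb1, arb2, dcr1, rdp1 and chp1.

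**Figure D2:**
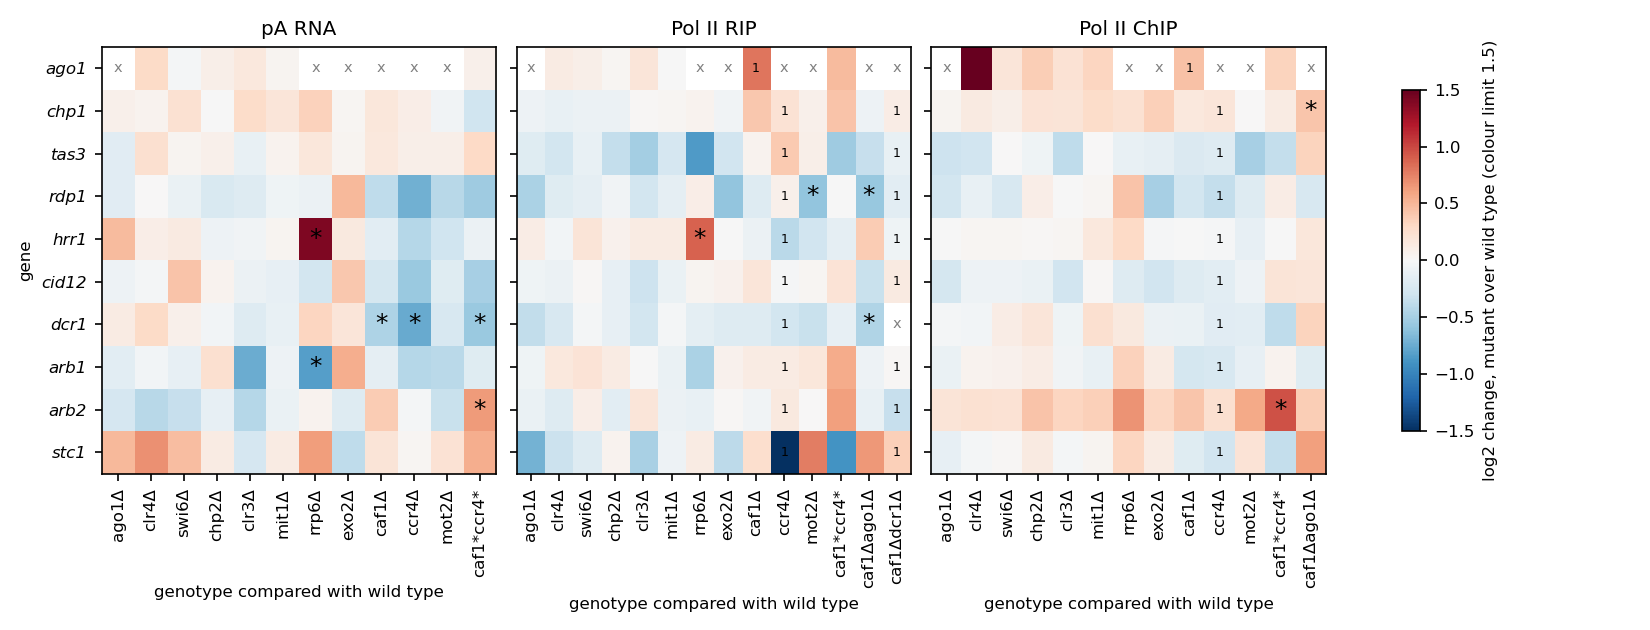
Log2 change of each gene (rows) in each genotype (columns) over wild type in pA RNA, RIP and ChIP, with colour limits at 1.5. An asterisk marks a call, 1 a genotype with 1 library and no test, and x a gene deleted or tagged there. Calls lie in the decay mutants and caf1Δago1Δ, none in the 6 silencing mutants.

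None of the genes was called in a silencing mutant, in any of the 3 measurements. Over ago1Δ, clr4Δ, swi6Δ, chp2Δ, clr3Δ and mit1Δ, edgeR called 0 of 59 tests in pA RNA, with 5 at an unadjusted p under 0.05. It called 0 of 59 in RIP, with 2, and 0 of 59 in ChIP, with 1 such test, and DESeq2, which was not fitted for ago1 in ChIP, called none in pA RNA, RIP or ChIP. In pA RNA the share called among all features was 6.55% in ago1Δ, 1.36% in clr4Δ, 13.9% in swi6Δ, 0.336% in chp2Δ, 0.947% in clr3Δ and 0.257% in mit1Δ. Apart from ago1 the changes in pA RNA ran from −0.74 for arb1 in clr3Δ (SE 0.26, adjusted p = 0.234) to 0.69 for stc1 in clr4Δ (SE 0.25, adjusted p = 0.151). In RIP the shares were 0.535% in ago1Δ, 0.357% in clr4Δ, 0.258% in swi6Δ, 0.178% in chp2Δ, 0.713% in clr3Δ and 0.139% in mit1Δ. In ChIP they were 0.0786% in clr3Δ, 0.0197% in mit1Δ and 0% in ago1Δ, clr4Δ, swi6Δ and chp2Δ, where 139 to 450 features had an unadjusted p under 0.05 and DESeq2 called 1 to 34.

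In pA RNA of ago1Δ the changes of the other 9 genes ran from −0.25 to 0.48, none called. The level of hrr1 was 76.4, 85.2 and 168 CPM in the 3 ago1Δ libraries against 65.0, 69.5, 83.9 and 98.5 in wild type. The groups overlapped, and only replicate 3 stood above all wild-type libraries (log2 change 0.47, SE 0.21, adjusted p = 0.172). In that genotype 3 of 6 stress genes also rose, and their summed level was 4043 to 12930 TPM against 675.5 to 2247 in wild type. Their part in the hrr1 value was not tested.

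The largest called change was at hrr1, the helicase of the RNA-dependent RNA polymerase complex, in cells without Rrp6. Its pA RNA was at 208 and 211 CPM in rrp6Δ, above every wild-type library, whose highest was 98.5. This was a 2.65-fold rise (log2 change 1.40, SE 0.23, adjusted p = 8.65e-05, n = 2 against 4), the only one of the calls that held under every alternative with a test. Nascent hrr1 RNA rose as well, from 188 and 223 CPM to 377 and 384, a 1.84-fold change (log2 0.88, SE 0.18, adjusted p = 0.00444). Pol II occupancy was at 390, 401 and 408 against 312 and 336, again without overlap, but the change was 0.30 (SE 0.10) and not called (adjusted p = 0.101; DESeq2 adjusted p = 0.0108). The change in stability at hrr1 was 0.60 (SE 0.31, adjusted p = 0.248), not past the threshold. The RIP call was lost without wild-type replicate 2 (0.77, adjusted p = 0.0732) or rrp6Δ replicate 2 (0.87, adjusted p = 0.0550).

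The ARC gene arb1 fell in the same strain. It was at 43.7 and 49.1 CPM in pA RNA of rrp6Δ, below all 4 wild-type libraries (69.3, 74.7, 89.1 and 97.1). The log2 change was −0.83 (SE 0.26, adjusted p = 0.0174), and it lost the call under a replicate block (−0.66, adjusted p = 0.0562) and without either rrp6Δ library. In exo2Δ arb1 stood at the other end, at 115 and 125, above all wild-type libraries, with a change of 0.54 that was not called (SE 0.24, adjusted p = 0.106) but was with a replicate block (0.71, adjusted p = 0.0378). In rrp6Δ 32% of all features were called in pA RNA, in exo2Δ 23.1%, in RIP 3.9% and 2.36%, and in ChIP 2.2% and 2.12%, so the 2 of 9 genes called in rrp6Δ pA RNA are not above the background. The median change of the 9 genes was 0.17 in rrp6Δ pA RNA, beside −0.03 over all protein-coding genes tested.

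For tas3, the bridging subunit of RITS, the ratio of pA RNA to RIP rose in rrp6Δ. Its pA RNA was at 64.0 and 65.7 CPM against 52.3 to 66.4 in wild type, overlapping, while its RIP value was at 47.4 and 55.7 against 80.8 and 103. The interaction of measurement and genotype was 1.08 on the log2 scale (SE 0.31, adjusted p = 0.0224), and the RIP change alone was −0.85 and not called (SE 0.29, adjusted p = 0.0940). The call was lost without wild-type RIP replicate 1 (0.90, adjusted p = 0.171) and without any of the 4 rrp6Δ libraries. It was the only one of 105 tests of stability that passed, in a genotype where 6.92% of features did.

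Markers of mating and meiosis moved in rrp6Δ too. In pA RNA 6 of 11 rose, none fell, and their summed level was 371 and 420 TPM against 58.85 to 115 in wild type, with mei4, a meiotic transcription factor gene, at 166 and 198 against 1.72 to 3.76. None of the 11 was at 0 in all libraries of either group. In RIP of rrp6Δ 1 of the 11 was called, with a summed level of 1758 TPM against 812 to 972 in wild type. A higher pA RNA sum was not particular to rrp6Δ. It lay above wild type in ago1Δ, caf1*ccr4*, chp2Δ (184.7 to 827.1 TPM), clr4Δ (326.5 to 346.6), exo2Δ, mot2Δ and swi6Δ (249.1 to 829.9). It overlapped wild type in caf1Δ, ccr4Δ, clr3Δ and mit1Δ. What raised the markers in rrp6Δ was not tested. Of the 6 stress genes 2 rose, and their sum was 2735 and 3009 TPM against 675.5 to 2247 in wild type. Their part in the changes of hrr1, arb1 and tas3 was not tested.

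**Figure D3:**
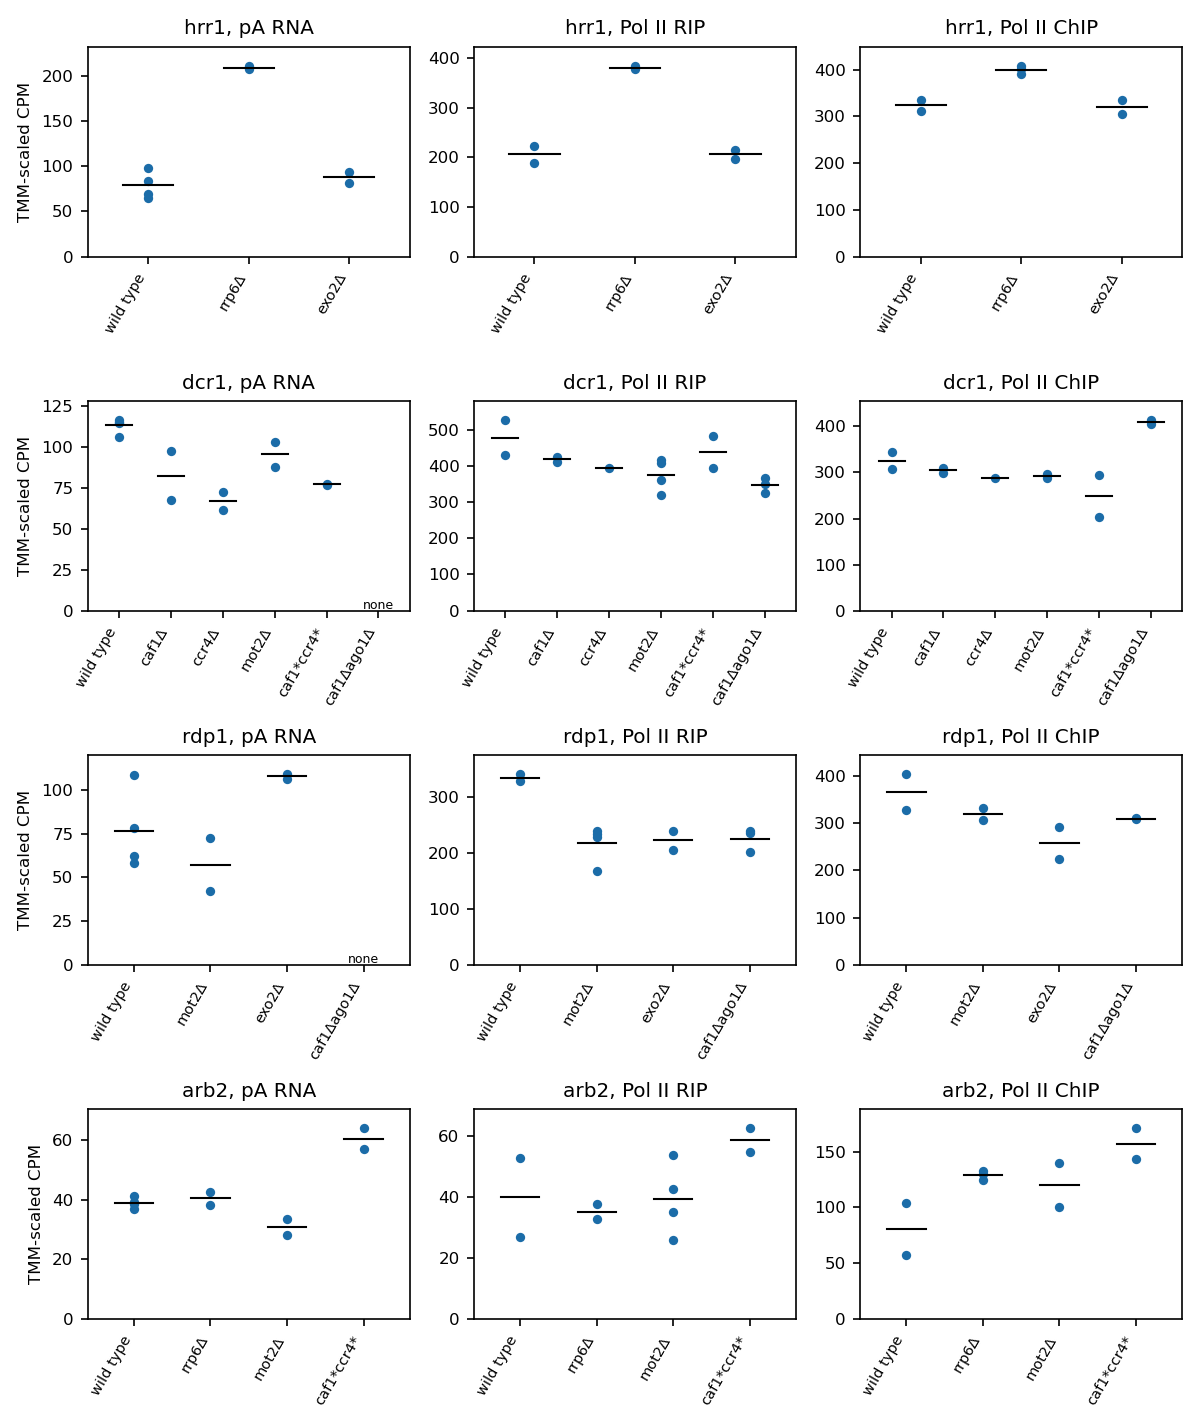
TMM-scaled CPM of hrr1, dcr1, rdp1 and arb2 (rows) in every library of wild type and selected mutants, in pA RNA, RIP and ChIP (columns), with the mean as a bar; "none" marks a genotype with no library used. In pA RNA and RIP both rrp6Δ libraries lie above all wild-type libraries for hrr1, and dcr1 pA RNA lies below wild type in caf1Δ, ccr4Δ and caf1*ccr4*.

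The Dicer gene dcr1 fell in pA RNA of 3 of the 4 CCR4-NOT mutants. In wild type it was at 106, 115, 116 and 117 CPM. In ccr4Δ it was at 61.6 and 72.4, a 1.69-fold fall (log2 change −0.76, SE 0.14, adjusted p = 0.00322). In caf1*ccr4* it was at 77.0 and 77.7 (log2 change −0.55, SE 0.14, adjusted p = 0.00956), and in caf1Δ at 67.5 and 97.6 (−0.46, SE 0.14, adjusted p = 0.0273). In mot2Δ it was at 88.0 and 103, also below every wild-type library, but the change of −0.24 was not called (SE 0.14, adjusted p = 0.351). In rrp6Δ (138 and 145), exo2Δ (122 and 135) and clr4Δ (127 and 151) dcr1 lay above every wild-type library. These changes were not called, at 0.32 (SE 0.14, adjusted p = 0.0768), 0.18 (adjusted p = 0.322) and 0.29 (adjusted p = 0.234), and DESeq2 called the one in rrp6Δ (adjusted p = 0.0460). In caf1*ccr4* the mating and meiosis markers summed to 139 and 214 TPM, with none called, and their part in the dcr1 and arb2 values was not tested. The share called among all features was 4.99% in ccr4Δ, 19.3% in caf1*ccr4*, 16.8% in caf1Δ and 5.45% in mot2Δ.

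Each of the 3 calls was lost in some fit that left out 1 mutant library. Without caf1Δ replicate 1, where caf1 was at 51.7% of wild type, the caf1Δ change was −0.22 (adjusted p = 0.447), and without ccr4Δ replicate 2 the ccr4Δ change was −0.65 (adjusted p = 0.145). The caf1*ccr4* change stayed near its value without replicate 1 (−0.55, adjusted p = 0.0824) or replicate 2 (−0.56, adjusted p = 0.104). The TPM scale moved the pA RNA median protein-coding gene by 0.39 in caf1Δ, 0.30 in caf1*ccr4*, 0.25 in mot2Δ, 0.19 in rrp6Δ and 0.13 in ccr4Δ, and on it the dcr1 ratios were −0.02, −0.19 and −0.57 in caf1Δ, caf1*ccr4* and ccr4Δ, so the falls hold relative to the median gene. No difference was called at dcr1 in RIP of these strains: the changes were −0.19 in caf1Δ (SE 0.16), −0.12 in caf1*ccr4* (SE 0.17) and −0.33 in mot2Δ (SE 0.14, adjusted p = 0.216), and the single ccr4Δ library gave −0.27. The stability measure of dcr1 was at −0.23 in caf1Δ (SE 0.22) and −0.40 in caf1*ccr4* (SE 0.22, adjusted p = 0.281), where 0.572% and 8.44% of features were called. In ChIP dcr1 was at −0.39 in caf1*ccr4* (SE 0.15, adjusted p = 0.119).

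In caf1Δago1Δ, measured in RIP and ChIP, nascent dcr1 RNA was at 326, 350 and 366 CPM against 429 and 526 in wild type. The groups did not overlap and the change was called (log2 −0.45, SE 0.15, adjusted p = 0.0454), although 6 of 9 alternatives with a test lost the call. In that comparison 13.6% of features were called in RIP. Wild type had the highest dcr1 mean of the 14 RIP genotypes, at 477 CPM. In ago1Δ dcr1 was at 365 and 369, also below both wild-type libraries and not called. Values of caf1Δ, clr4Δ, mot2Δ and the ccr4Δ library lay below them as well, and the other genotypes overlapped wild type.

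Nascent RNA of rdp1, the RNA-dependent RNA polymerase, fell in mot2Δ and caf1Δago1Δ, and its Pol II occupancy was called in neither, although a replicate block called it in caf1Δago1Δ (−0.38, adjusted p = 0.0438). In RIP it was at 327 and 340 CPM in wild type, at 167, 228, 234 and 239 in mot2Δ and at 201, 236 and 239 in caf1Δago1Δ. Neither mutant overlapped wild type, and both changes were called, at −0.60 in mot2Δ (SE 0.15, adjusted p = 0.0232) and −0.57 in caf1Δago1Δ (SE 0.16, adjusted p = 0.0189). In exo2Δ rdp1 was at 204 and 239 in RIP, a change of almost the same size that was not called (−0.59, SE 0.18, adjusted p = 0.0804; DESeq2 adjusted p = 0.0464; with a replicate block adjusted p = 0.0185). In ago1Δ rdp1 was at 226 and 254 in RIP, also below both wild-type libraries and not called. The values of caf1Δ (276 and 306), clr3Δ (247 to 319) and swi6Δ (284 to 319) lay below them too, none called. So did the caf1Δdcr1Δ library (298), whereas the ccr4Δ library lay above (351) and the other genotypes overlapped wild type. The share of features called in RIP was 2.79% in mot2Δ, 7.51% in caf1*ccr4* and 0.951% in caf1Δ. Both rdp1 calls were lost when either wild-type RIP library was left out, at changes between −0.63 and −0.54. The mot2Δ call was also lost without replicate 5 (−0.51, adjusted p = 0.0581), and the caf1Δago1Δ call without its lowest library (−0.49, adjusted p = 0.0937). The occupancy changes were −0.20 in mot2Δ (SE 0.18), −0.24 in caf1Δago1Δ (SE 0.18) and −0.50 in exo2Δ (SE 0.18, adjusted p = 0.187). The last was called with a replicate block (−0.59, adjusted p = 0.0290) and without the flat replicate 3 of chp2Δ, mit1Δ and rrp6Δ (−0.50, adjusted p = 0.0432).

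At steady state the rdp1 calls changed with the wild-type libraries used. In wild type rdp1 was at 58.1, 62.0 and 78.6 CPM in the strain 63 libraries and at 109 in the strain 65 library, so that strain and library cannot be told apart. In exo2Δ it was at 107 and 109, in ccr4Δ at 45.9 and 47.3 and in caf1*ccr4* at 52.1 and 53.8. None of these was called against all wild-type libraries (ccr4Δ −0.72, SE 0.26, adjusted p = 0.105). Against the single strain 65 library, assumed to vary like the other groups, rdp1 was called in ccr4Δ (−1.23, adjusted p = 0.0435) and caf1*ccr4* (−1.01, adjusted p = 0.0387). Without that library it was called in exo2Δ (0.73, adjusted p = 0.0355). In rrp6Δ rdp1 occupancy was at 546, 561 and 375 CPM against 328 and 404 in wild type. The lowest is the flat library, and the change was 0.43 with it (SE 0.17, adjusted p = 0.164) and was called without it and replicate 3 of chp2Δ and mit1Δ (0.59, adjusted p = 0.0180), a fit that kept the flat caf1Δago1Δ libraries. In exo2Δ the stability measure of rdp1 was at 1.16 (SE 0.32, adjusted p = 0.0625), where 0.709% of features were called, and DESeq2 called it (adjusted p = 0.0295).

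The ARC gene arb2 rose in caf1*ccr4* in pA RNA and in occupancy. Its pA RNA was at 57.2 and 64.0 CPM, above the 36.9 to 41.1 of the 4 wild-type libraries (log2 change 0.64, SE 0.20, adjusted p = 0.0330). Pol II occupancy was at 143 and 171 against 57.1 and 104, a 1.94-fold rise (log2 0.95, SE 0.23, adjusted p = 0.0185), in a comparison where 6.05% of features were called. In RIP arb2 was at 0.62 (SE 0.33, adjusted p = 0.262). The pA RNA call was lost without any one of 5 libraries, at changes between 0.55 and 0.72. The occupancy call was lost without wild-type replicate 1, the library of strain 63, which was the lowest of all (0.58, adjusted p = 0.269), and without caf1*ccr4* replicate 1 (0.82, adjusted p = 0.169). In rrp6Δ arb2 occupancy was at 125, 130 and 133, above both wild-type libraries, a change of 0.67 that was not called (SE 0.21, adjusted p = 0.0911). It was called by DESeq2 (adjusted p = 0.0420), with a replicate block (0.70, adjusted p = 0.0489) and with input as an offset (0.80, adjusted p = 0.0435). Against wild-type replicate 1 alone, arb2 occupancy was called in rrp6Δ (1.18), mot2Δ (1.07) and caf1Δago1Δ (0.87). In caf1Δ pA RNA arb2 was at 48.1 and 53.0, above wild type, with a change of 0.38 that was not called (SE 0.20, adjusted p = 0.209).

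**Figure D4:**
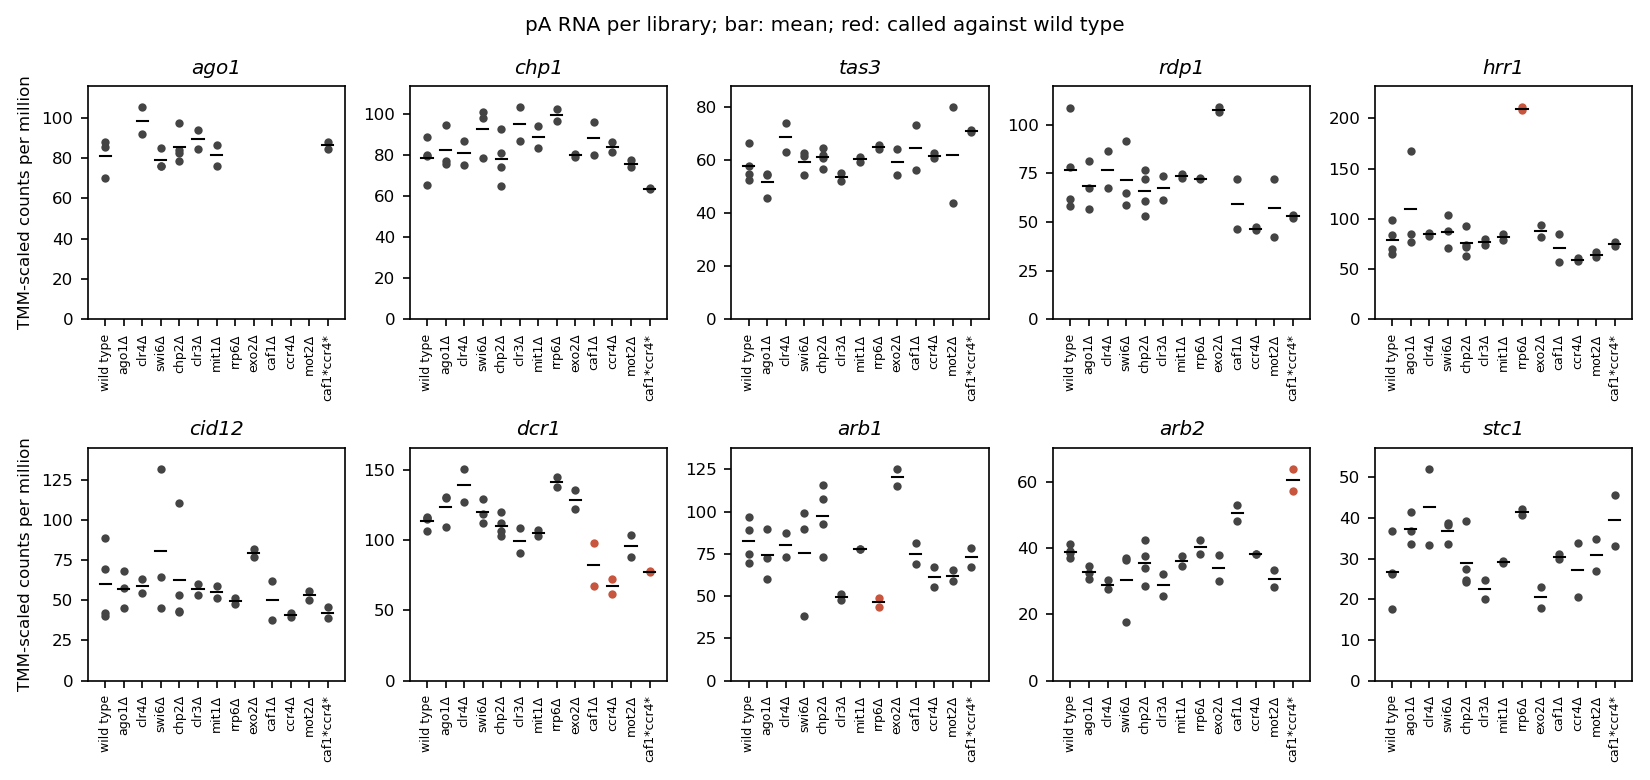
TMM-scaled CPM in every pA RNA library of the 13 genotypes, 1 panel per gene, with the mean as a bar and called genotypes in red; ago1 is shown for strains in which it is neither tagged nor deleted. hrr1 stands apart in rrp6Δ at 208 and 211, and the mean bars are the flattest in the ago1 and tas3 panels.

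Across the 13 genotypes of pA RNA, the genotype means of tas3 varied less than those of nearly all genes. They ran from 51.5 to 71.0 CPM, and 1.84% of genes with a mean of at least 5 TPM had a smaller SD. Single libraries spread more, with tas3 at 79.9 in mot2Δ strain 1022 and at 43.6 in mot2Δ strain 1023. Strain and library cannot be told apart there. The means of the other RITS genes were also steady: chp1 ran from 63.7 to 99.7 with 6.76% of genes below its SD, and ago1, over 7 genotypes, from 79.0 to 98.5 with 5.01% below. At the other end was hrr1, from 59.1 to 210 with 75.7% of genes below, the highest mean being that of rrp6Δ. Each genotype mean rests on 2 to 4 libraries, and these SDs are given as a description without a test.

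On untagged strains ago1 was called in no genotype, in 6 comparisons each of pA RNA, RIP, ChIP and stability, where 2.83%, 1.04%, 0.364% and 1.27% of all tests were called. In pA RNA it was at 70.1, 85.2 and 87.8 CPM in wild type, and its changes ran from −0.03 in swi6Δ to 0.29 in clr4Δ (SE 0.15, adjusted p = 0.472). In RIP both wild-type libraries were at 133, and caf1*ccr4* was at 153 and 219 (0.47, SE 0.18, adjusted p = 0.136), a change that was called without caf1*ccr4* replicate 2 (0.72, adjusted p = 0.0133). Without that library RIP changes in caf1*ccr4* were also called for chp1 (0.70, adjusted p = 0.0153) and tas3 (−1.21, adjusted p = 0.0172), which were at 0.43 and −0.53 and not called with it. The single untagged caf1Δ RIP library was at 236, which had no replicate and no test.

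The ChIP comparisons of ago1 rest on 1 untagged wild-type library, assumed to vary like the other groups. Its value was the lowest of the 8 genotype means. In ChIP 1 library stood apart at ago1. The clr4Δ libraries were at 2973, 153 and 173 CPM, against 155 in the untagged wild type and 147 to 230 in the other untagged strains. The change was 2.84 (SE 1.38, adjusted p = 0.699), with replicates 2 and 3 inside the range of the other strains. With replicate 1 left out of every comparison, ago1 was still called in none. In input of clr4Δ, ago1 was at 308 CPM, against 245 to 291 in the other untagged strains.

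The chromodomain gene chp1 was called once, in ChIP of caf1Δago1Δ, at 250 and 267 CPM against 187 and 201 (log2 change 0.41, SE 0.13, adjusted p = 0.0318), a call lost without any 1 of these 4 libraries (0.36 to 0.47). Both mutant libraries are among those with a flat profile, 28.2% of features were called, the TPM scale moved the median gene by 0.37 and chp1 to 0.78, and the part of that profile in the change was not tested. With a replicate block the occupancy of tas3 (0.53), stc1 (0.86) and dcr1 (0.37) was called in caf1Δago1Δ as well. Wild type had the lowest chp1 mean of the 14 ChIP genotypes, at 194 CPM. In exo2Δ chp1 was at 241 and 256, above both wild-type libraries and not called. Values of caf1Δ, clr3Δ, clr4Δ, mit1Δ, rrp6Δ, swi6Δ and the ccr4Δ library lay above them too, without a call. Those of ago1Δ, caf1*ccr4*, chp2Δ and mot2Δ overlapped wild type. In RIP chp1 was at 331 and 349 in caf1Δ against 257 and 258 in wild type, a change of 0.40 that was not called (SE 0.18, adjusted p = 0.454). ChIP called 1.95% of features in mot2Δ and 0% in caf1Δ, where 293 had an unadjusted p under 0.05 and DESeq2 called 11, none of the 9 genes in either.

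In RIP, the reads of stc1, the link of RITS to CLRC, numbered 9 and 124 in wild type, 5 and 20 in caf1*ccr4* and 18 in ccr4Δ, and changes of −0.90 in caf1*ccr4* (SE 0.58) and 0.77 in mot2Δ were not called. In pA RNA it was at 40.7 and 42.3 CPM in rrp6Δ, above wild type (17.6 to 36.8), with a change of 0.63 that was not called (SE 0.25, adjusted p = 0.0574) but was called by DESeq2 (adjusted p = 0.0432) and without wild-type replicate 2 (0.84, adjusted p = 0.0166). For cid12 no change was called. In pA RNA of swi6Δ it was at 45.3, 64.7 and 132, and in wild type at 40.5, 41.9, 69.6 and 88.8, while its genotype means ran from 40.8 to 80.6.

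The stability tests called 0.374% of features in ago1Δ, 0.0197% in chp2Δ and in mit1Δ, 0.631% in mot2Δ, and 0% in clr3Δ, clr4Δ and swi6Δ, where 206, 389 and 668 had an unadjusted p under 0.05 and DESeq2 called 1, 0 and 38. None of the genes was called in any of these 7 genotypes, and the lowest adjusted p in the silencing mutants was 0.205, for dcr1 in ago1Δ (0.59, SE 0.21). In caf1*ccr4* the stability measure of chp1 was at −0.71 (SE 0.25, adjusted p = 0.0608) and was called by DESeq2 (adjusted p = 0.0331) and with a replicate block (−0.78, adjusted p = 0.0229). In total RNA, measured for ago1Δ, clr4Δ and caf1Δ with both wild-type libraries of strain 65, edgeR called 0% of 14877 tests, with 148 at an unadjusted p under 0.05, and DESeq2 called 18. Of 27 tests of the genes none was called by either tool. The only one at an unadjusted p under 0.05 was hrr1 in ago1Δ (1.15, SE 0.40, adjusted p = 1.00).

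Other genes of the heterochromatin pathway were called in pA RNA of rrp6Δ, exo2Δ and caf1*ccr4*. In these genotypes 32%, 23.1% and 19.3% of all features were called, so the calls describe single genes and are no result about the lists. Of the accessory genes ers1, dsh1 and tri1, ers1 rose in rrp6Δ (0.61, SE 0.14, adjusted p = 0.00259) and dsh1 in exo2Δ (0.73, SE 0.19, adjusted p = 0.00866), 2 of 36 tests. Of the CLRC genes reported here, rik1 and raf2 rose in rrp6Δ (0.47 and 0.52), rik1 rose in exo2Δ (0.50) and pcu4 rose in caf1*ccr4* (0.88), and none fell. Of the HP1 and SHREC genes 3 of 68 were called, with chp2 higher in rrp6Δ (1.17, SE 0.28, adjusted p = 0.00281), clr2 lower in rrp6Δ (−0.93) and clr1 lower in exo2Δ (−0.82). The gene of the anti-silencing factor epe1 was called in none of 12. In RIP clr2 was lower in rrp6Δ (−1.41) and caf1Δago1Δ (−1.19), clr1 (−0.55) and epe1 (−0.55) were lower in caf1Δago1Δ, and none of these CLRC genes and no accessory gene was called, where 3.9% and 13.6% of features were. In ChIP the 4 calls were all in caf1Δago1Δ, whose libraries are flat and where 28.2% of features were called, with ers1 (0.74), clr4 (0.68) and rik1 (0.83) higher and tri1 lower (−1.21). In stability raf2 (1.04) and pcu4 (0.79) were higher in rrp6Δ and pcu4 (0.66) in caf1*ccr4*, beside 6.92% and 8.44% of features.

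Over the 13 pA RNA genotypes some pairs of the genes moved together and others apart. Among the 36 pairs of the 9 genes other than ago1, Pearson's r of the log2 genotype means had a median of 0.0685, with 20 pairs above 0. The highest were dcr1 with rdp1 (0.813) and cid12 with rdp1 (0.802), and the lowest was arb2 with cid12 (−0.576). These values share the wild-type and mutant libraries and are given without a test. By Pearson's r on log2(TPM + 1) in place of CPM, the genes most like hrr1 were meu32 (r = 0.969), meu1 (0.964) and dli1 (0.963). The hrr1 mean was highest in rrp6Δ, and the part of that genotype in these values was not tested. Those most like dcr1 were SPAC1B3.10c (0.941), rad15 (0.934) and trt1 (0.929), and those most like rdp1 were SPAC144.05 (0.897), omt2 (0.890) and plc1 (0.890). For tas3 they were sea2, ryh1 and mmm1 (0.936 to 0.948), for chp1 SPAC19B12.01, sof1 and nar1 (0.909 to 0.930), and for cid12 mis18, lam1 and mdm10 (0.802 to 0.898). For arb1 they were snr1, iah1 and gta1 (0.883 to 0.910), for arb2 mrpl9, scl1 and SPAC14C4.04 (0.961 to 0.976), and for stc1 rng9, set6 and dam1 (0.912 to 0.918). For ago1, over 7 genotypes, they were gms2, sap10 and cyp9 (0.971 to 0.979). Each list holds the 3 highest of 4893 genes (4851 for ago1), on the TPM scale, whose median gene moved between genotypes.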

How the data were processed

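By the submitters' processing notes and the study's methods, the authors aligned reads with STAR 2.7.3a and counted them with an extension of HTSeq on a PomBase annotation, by strand for RNA. The deposited counts per feature are raw, with a transcript length per feature. The genome build is not given in the sources used here, and gene overlaps were read from ASM294v3. TPM was computed from counts and those lengths over protein-coding genes and the study's heterochromatic features. No input was subtracted from the ChIP counts, whereas the study subtracts scaled input. Differences were tested with edgeR 4.0.16 in R 4.3.3 (TMM, quasi-likelihood, two-sided) on features that reached a minimum of 10 counts in 2 or more libraries, with Benjamini-Hochberg adjustment over all features and calls under 0.05. No replicate pair was identical (85 pairs, chi-square per degree of freedom at least 1.27). By the rule that a library under a Spearman correlation of 0.8 on log counts is dropped, none was. RNA stability was tested as the interaction of pA RNA and Pol II RIP with genotype. Alternatives were DESeq2 1.42.0, no filter, a replicate block, fits of 1 mutant with wild type, either wild-type strain, either caf1Δ strain, input as an offset, TPM ratios and leaving out each library, where a group left with 1 library was assumed to vary like the others. The genes and the lists (accessory, CLRC, HP1 and SHREC, epe1, mating and meiosis, stress) were chosen with earlier results of these data known; all 10 genes, called list genes and, per gene, the 3 genes with the most similar pA RNA pattern are named, apart from a CLRC gene that is not reported here. H3K9me2 ChIP was not used. Empty count cells were read as 0.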

Additional observations from a re-analysis of the deposited data

Results flagged for a closer look

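In groups of 4 or more libraries, 3 of 38 sets of values held a library that stood apart from the others of its group by Dixon's criterion, which flags about 1 in 20 by chance. For cid12 it was chp2Δ replicate 2 in pA RNA, at 111 TMM-scaled CPM against 42.8 to 53.5 in the other 3. For dcr1 it was wild-type replicate 1 in pA RNA, at 106 against 115 to 117. For rdp1 it was mot2Δ replicate 5 in Pol II RIP, at 167 against 228 to 239, where rdp1 had 55 reads.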

How the results depend on the processing

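Of 13 calls only hrr1 in pA RNA of rrp6Δ was kept under every alternative with a test (1.12 to 1.63 over all alternatives), and no call reversed. Fits of 1 mutant with wild type lowered the calls from 6 to 1 in pA RNA, from 4 to 2 in RIP and from 2 to 1 in ChIP. In ChIP, 4 calls came from DESeq2, 8 with a replicate block, 4 with wild type of strain 63 only, 0 with strain 65 only, and 5 without the flat replicate 3 of chp2Δ, mit1Δ and rrp6Δ, a fit that kept both flat caf1Δago1Δ libraries. In stability, 3 calls came from DESeq2, 2 with no filter, 3 with a replicate block and 2 with wild type of strain 63 only, against 1. With a replicate block pA RNA had 6 calls and RIP 5. Leaving out each library gave 4 to 8 calls in pA RNA, 0 to 7 in RIP, 0 to 4 in ChIP, 0 to 4 in stability and 0 to 1 for ago1 in RIP, and total RNA stayed at 0. RIP had 7 calls without caf1*ccr4* replicate 2, 1 and 0 without wild-type replicates 1 and 2, and 2 without the caf1Δago1Δ library with the lowest rdp1. ChIP had 0 and 4 without wild-type replicates 1 and 3, 1 and 4 without caf1*ccr4* replicates 1 and 2, and 1 without either caf1Δago1Δ library. Stability had 0 without any rrp6Δ library or wild-type RIP replicate 1, 2, 2 and 3 without wild-type pA RNA replicates 2, 3 and 4, and 4 without caf1*ccr4* RIP replicate 2. The replicate number was shared only as a number: deviations from the group mean correlated from −0.533 to 0.739 with those of the same-numbered wild-type library, above 0.1 in 13 of 28 pA RNA, 8 of 21 RIP and 7 of 16 ChIP cases. Leaving out ChIP libraries by their TPM correlation or profile, clr4Δ ChIP replicate 1 throughout, and strain 65 in stability were chosen after seeing the data. No ChIP library was dropped by the main rule, so keeping all is the same fit. The RIP values of stc1 rest on few reads, 9 and 124 in wild type.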
